A study of Mus musculus with 67 samples.

Results

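The 10 genes described here make, degrade, carry or sense retinoic acid. They are Rdh10 and Aldh1a2 (synthesis), Cyp26a1, Cyp26b1 and Cyp26c1 (breakdown), Crabp1 and Crabp2 (binding in the cytoplasm), and Rara, Rarb and Rarg (nuclear receptors). They were chosen by name for their place in the pathway, with earlier results of these data known. Each matched 1 of the 46983 gene IDs in the RNA-seq tables. Counts of members, or of the gene lists below, set beside all genes are therefore descriptions and no test. The study asked whether the GLI3 repressor controls gene expression in the mouse limb bud before Hedgehog signaling begins, and compared WT embryos with embryos that lack Gli3 before and after the pathway is active. RNA was sequenced from 14 libraries in 4 groups. Whole forelimb buds were taken at E9.25 (21 to 23 somites, about 4 pairs of buds pooled per library) from WT (n = 3) and Gli3-/- (n = 4) embryos. The anterior part of forelimb buds was taken at E10.5 (32 to 35 somites, 2 pairs per library by the sample labels) from WT (n = 4) and Gli3-/- (n = 3) embryos. The study's methods instead give about 4 pairs per replicate at both stages. All embryos were on a Swiss Webster background, and the Gli3-/- embryos carried the Xt-J allele, a germline deletion, so that Gli3 was missing from the whole embryo and not from the limb alone. Xt-J removes the 3′ part of the gene, and reads from the remaining part still count toward the gene. Because the E9.25 tissue was the whole bud and the E10.5 tissue its anterior part, stage and tissue cannot be told apart in any comparison of the stages.

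Retinoic acid is a small diffusible ligand made from vitamin A. RDH10 oxidizes retinol to retinaldehyde, and ALDH1A2 oxidizes retinaldehyde to retinoic acid. The CYP26 enzymes, members of the cytochrome P450 family, hydroxylate retinoic acid and so remove it. CRABP1 and CRABP2 bind it in the cytoplasm, and CRABP2 hands it to the receptors in the nucleus. The receptors RARA, RARB and RARG bind DNA with RXR partners at direct repeats of a short half-site and switch from repression to activation when they bind the ligand. In the early embryo the trunk and flank mesoderm next to the forelimb are known as the source of retinoic acid, while Cyp26b1 is known for clearing it from the distal limb mesenchyme. Meis1 and Meis2 mark the proximal limb segment and are known to respond to retinoic acid.

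The promoters of Rarb and Cyp26a1 are textbook targets of the receptors, and their sequences are shown for that reason. Promoter windows (250 bases before to 50 bases after a transcription start; RefSeq, GRCm38.p6) were at hand for 8 of the 10 genes, in 12 windows. Each window was searched on both strands for a DR5 element, which is a pair of half-sites in the same direction (AGGTCA or AGTTCA or GGGTCA or GGTTCA each) with any 5 bases between them. The 250 bases before the start are printed 5′ to 3′ on the strand of the gene, in lower case with the DR5 match in capitals. The Rarb window is chr14:16575477-16575726 on the minus strand, and the Cyp26a1 window is chr19:37697558-37697807 on the plus strand.
Rarb: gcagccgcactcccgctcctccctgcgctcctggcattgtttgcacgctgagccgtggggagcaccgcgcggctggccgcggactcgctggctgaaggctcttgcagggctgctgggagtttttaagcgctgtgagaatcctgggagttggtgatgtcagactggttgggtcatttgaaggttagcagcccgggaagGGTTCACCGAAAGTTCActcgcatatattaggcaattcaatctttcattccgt
Cyp26a1: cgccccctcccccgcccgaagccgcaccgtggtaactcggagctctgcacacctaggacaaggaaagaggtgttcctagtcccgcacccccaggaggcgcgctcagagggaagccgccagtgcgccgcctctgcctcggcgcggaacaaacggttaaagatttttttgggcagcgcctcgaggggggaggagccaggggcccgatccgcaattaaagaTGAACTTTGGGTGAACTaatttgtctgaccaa

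The Rarb match, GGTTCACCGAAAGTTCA, reads along the gene and begins 53 bases before the start. The Cyp26a1 match lies on the other strand, where it reads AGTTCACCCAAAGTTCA, and its far end is 32 bases before the start. A DR5 match was present in 0.0974% of the 32851 promoter windows searched, and Rarb and Cyp26a1 were the 2 members with one. The same half-sites spaced by 2 bases (0.268% of windows) or by 1 base (0.222%) were in none of the members' windows. A single AGGTCA was in windows of Rara and Rarg and in 16.3% of all windows. A single AGTTCA was in windows of Rara, Rarb and Cyp26a1 and in 14% of all windows, and those of Rarb and Cyp26a1 lie inside the DR5 matches. The GLI motif GACCACCCA was in none of the members' windows and in 0.253% of all. These matches describe letters in short windows and do not show that a factor was bound.

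Levels are given as TPM, a unit that sums to 1 fixed total per library and is corrected for transcript length, so that levels can be compared between genes. Tests were made with limma on log2(TPM + 1) over the genes that reached a TPM of 1 in 3 or more of the libraries tested. Fold changes on this scale understate the change of low genes, and the threshold was an adjusted p of 0.05. Libraries held an estimated 38.1 to 56.8 M reads, and a TPM of 1 rests on 20.7 to 29.3 reads per kilobase of transcript. Gli3 itself fell at E10.5, from 73.4 to 89.7 TPM in WT to 38.7 to 40.9 TPM in Gli3-/- (log2 fold change -1.01 ± 0.08 SE, adjusted p = 0.000335), although the spread of one model of all 14 libraries gave an adjusted p of 0.0609. At E9.25 Gli3 did not pass (log2 fold change -0.74 ± 0.32 SE, adjusted p = 0.223). WT replicates 1 and 3 held 44.2 and 44.6 TPM, but the library labelled WT replicate 2 held 15.8 TPM, inside the 14.3 to 20.8 TPM of the 4 Gli3-/- libraries. Leaving that library out, Gli3 passed (-1.22 on the log2 scale, adjusted p = 0.0415). That library also had the lowest estimated read number, and its 1694 genes spanning at least 100 kb had a median 0.51 below the other WT libraries on the log2 scale, against 0.20 below over all genes. Values without this library are given beside the members' results at E9.25. Limb mesenchyme markers were present in all libraries, with a summed TPM of 585 to 867 over 6 genes, and neural tube markers were near 0 (0.14 to 0.59 over 6 genes).

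**Figure D1:**
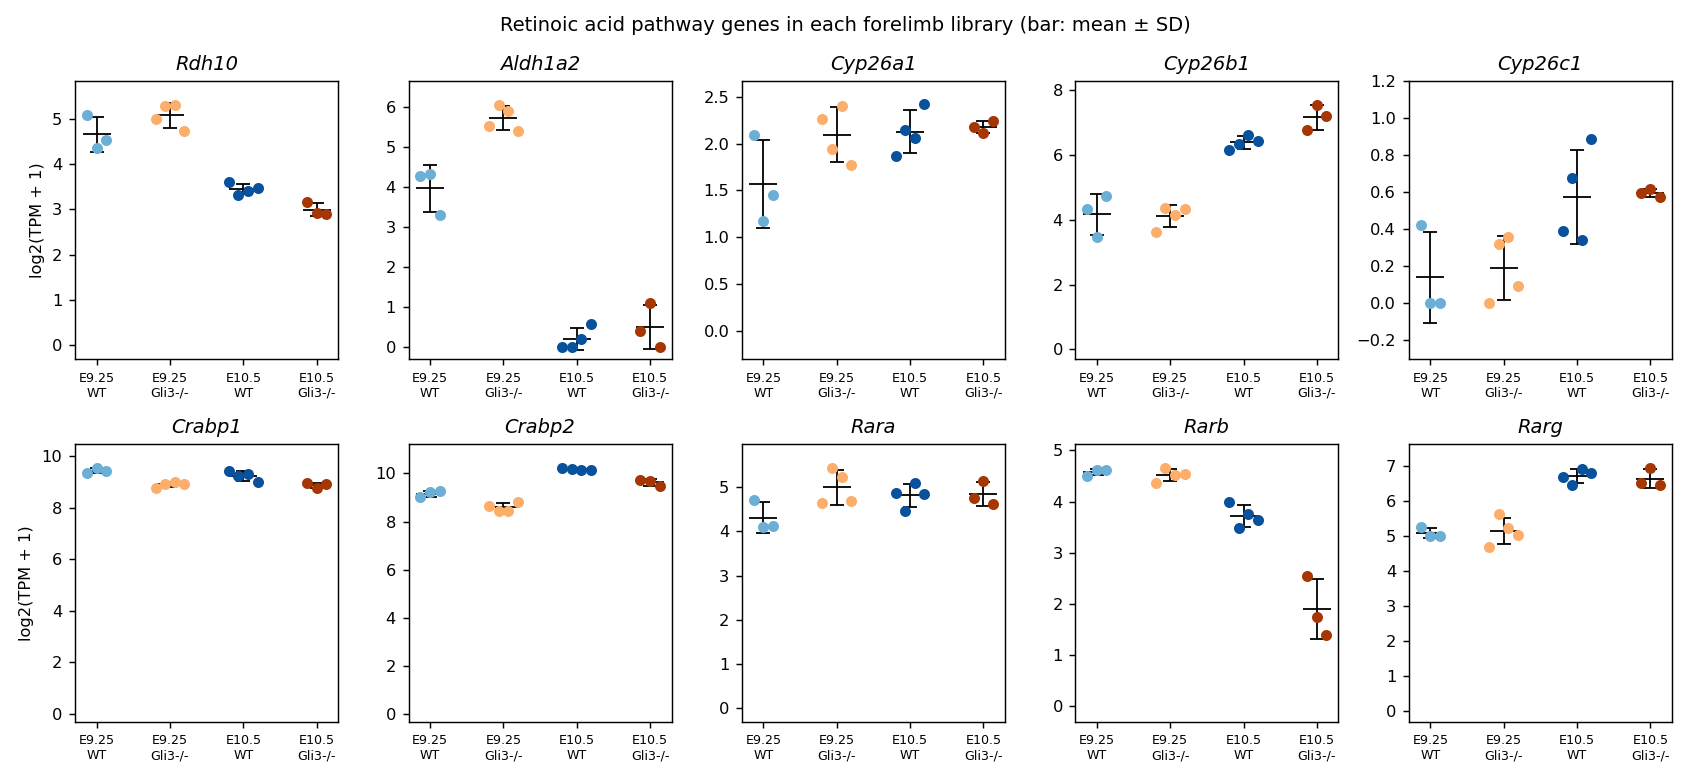
Each panel plots 1 gene, with log2(TPM + 1) on the vertical axis and its own scale, and the 4 groups on the horizontal axis; each point is a library (n = 3, 4, 4 and 3 from left to right) and bars are the mean ± SD. Aldh1a2 was high in the E9.25 Gli3-/- libraries (41.7 to 65.3 TPM) and at most 1.14 TPM at E10.5, Cyp26b1 and Rarg were higher at E10.5, and Rarb was lowest in the E10.5 Gli3-/- libraries (1.64 to 4.82 TPM).

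At E9.25, loss of Gli3 went with a higher level of the gene that makes retinoic acid. Aldh1a2 rose, while its upstream partner Rdh10 and the CYP26 enzymes did not pass the test. Of the 9 members tested, 1 passed, against 0.136% of the 14760 genes tested (0.108% higher and 0.0271% lower). The median log2 fold change of the 9 was 0.06, beside 0.23 for all genes tested. Without WT replicate 2 the log2 fold change of Aldh1a2 was 1.94 (adjusted p = 0.027). The other 8 were then at 0.26 for Rdh10, 0.33 for Cyp26a1, -0.41 for Cyp26b1, -0.48 for Crabp1, -0.54 for Crabp2, 0.59 for Rara, -0.034 for Rarb and 0.021 for Rarg, and none of them passed (adjusted p of 0.332 to 0.970).

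Aldh1a2 (chr9:71215789-71296243, plus strand) read 18.5, 19 and 8.81 TPM in the E9.25 WT libraries and 45.4, 65.3, 58.6 and 41.7 TPM in the Gli3-/- libraries. All 4 Gli3-/- libraries lay above all 3 WT libraries, by a factor of over 2 between the nearest ones. The log2 fold change was 1.76 ± 0.26 (SE; 95% interval 1.17 to 2.34), or 3.38-fold, with an adjusted p of 0.038. Measured against the median of all genes it was 1.53. The call is close to the threshold: it was lost with a pseudocount of 0.1, without the filter, without a variance trend and with both other scalings (adjusted p of 0.055 to 0.328), and without WT replicate 3 or Gli3-/- replicate 1, 2 or 3 (adjusted p of 0.0878 to 0.181). In whole buds, more RNA per cell and more cells of an expressing type cannot be told apart.

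Markers of the flank and lateral plate mesoderm, the tissue beside the limb field, moved in the same libraries. The 9 genes summed to 28.8 to 57.5 TPM in the WT libraries of that stage and to 72.9 to 166 TPM in the mutant ones, and the groups did not overlap. The difference in this sum lay in large part in Foxf1 (mean 1.17 TPM in WT and 25 TPM in Gli3-/-) and Gata4 (3.35 and 31.7 TPM). Gata6, Tbx18, Bnc1 and Upk3b each overlapped between the genotypes. The mean of Tbx18 was lower in Gli3-/- (4.2 TPM against 5.42 TPM in WT). Foxf2 was at 0 in every E9.25 WT library. Of the 8 tested, 2 passed, both higher, also without WT replicate 2. Gata4, a regulator of heart and lateral mesoderm, rose (log2 fold change 2.87, adjusted p = 0.0128). Foxf1, a transcription factor of the splanchnic mesoderm, read 0.22 to 2.8 TPM in WT and 12.1 to 35.5 TPM in Gli3-/-, and it entered the test through the Gli3-/- libraries. The 5 endothelial markers also summed higher, at 84.3 to 131 TPM against 42.9 to 69.3 TPM in WT, though none of them passed. The 6 surface ectoderm markers overlapped, at 147 to 218 TPM in WT and 198 to 340 TPM in Gli3-/-, and none passed, with the smallest adjusted p for Krt18 (log2 fold change 1.49, adjusted p = 0.13), Fgf8 (-1.31, adjusted p = 0.13) and Krt8 (1.37, adjusted p = 0.206). Limb mesenchyme markers overlapped between the groups, at 590 to 765 TPM in WT and 585 to 867 TPM in Gli3-/-. Whether differences in the tissue taken had a part in the Aldh1a2 result was not tested.

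**Figure D2:**
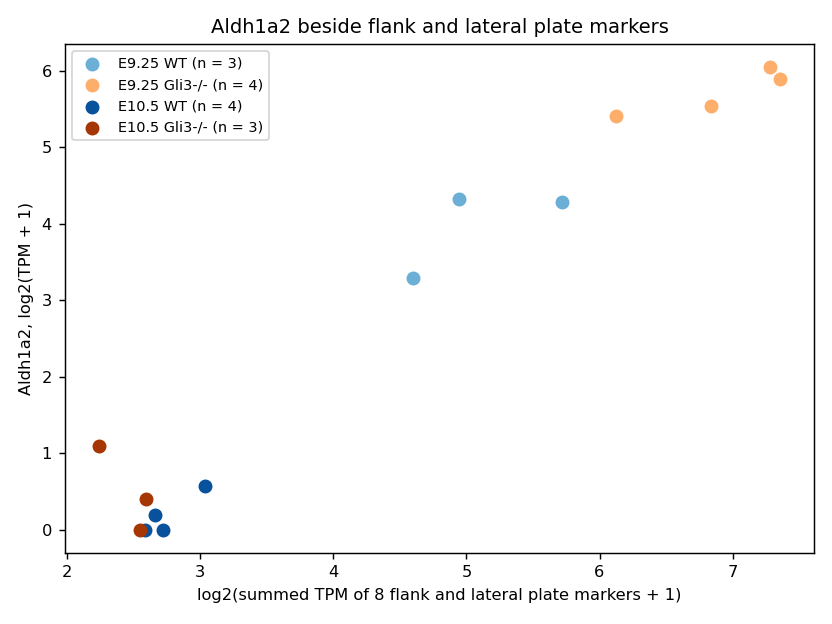
Each point is a library, with the summed TPM of 8 flank and lateral plate markers (Tbx18, at 24.1 to 52.8 TPM in the E10.5 limb, left out) on the horizontal axis and Aldh1a2 on the vertical axis, both as log2(value + 1); colors give the 4 groups. The E9.25 Gli3-/- libraries are highest on both axes (68.9 to 163 TPM of markers), the E9.25 WT libraries lie below them (23.2 to 51.7 TPM), and all E10.5 libraries lie at or under 7.2 TPM of markers and 1.14 TPM of Aldh1a2.

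At E10.5 Aldh1a2 was close to 0 in both genotypes. It was listed at 0, 0, 0.14 and 0.49 TPM in WT and at 0.32, 1.14 and 0 TPM in Gli3-/-, and these levels were too low for it to be tested between the genotypes. Common housekeeping genes were well above 0 in the same tables, with a lowest value of 21.8 TPM over 15 genes. All E10.5 levels lay below all E9.25 levels. Since Aldh1a2 passed the filter on low values through its E9.25 libraries alone, no test is given for it between the stages. The flank and lateral plate markers other than Tbx18 also dropped, to 5 to 7.2 TPM in E10.5 WT and 3.71 to 5.03 TPM in E10.5 Gli3-/-, and Foxf2 and Wt1 were at 0 in every E10.5 WT library. These E10.5 samples were anterior tissue.

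Rdh10 (chr1:16105774-16133734, plus strand) followed the same order of stages at lower amplitude. Levels were 33, 19.3 and 22.2 TPM at E9.25 in WT and 30.6, 37.9, 38.3 and 25.3 TPM in Gli3-/-, and these ranges overlapped (log2 fold change 0.41 ± 0.21 SE, 95% interval -0.06 to 0.89, adjusted p = 0.257). At E10.5 it read 11.1, 8.98, 9.53 and 10.2 TPM in WT and 7.88, 6.55 and 6.49 TPM in Gli3-/-. All 3 Gli3-/- libraries were below all 4 WT libraries, but the difference missed the threshold (log2 fold change -0.46 ± 0.11 SE, adjusted p = 0.0525), and it passed with a pseudocount of 0.1, without a variance trend and with sample weights (adjusted p of 0.0219 to 0.0497). Rdh10 fell between the stages, by -1.21 ± 0.18 on the log2 scale in WT (adjusted p = 0.00148) and -2.08 ± 0.16 in Gli3-/- (adjusted p = 1.22e-05). Both synthesis genes were lower in the anterior E10.5 bud, with Rdh10 retained at 9.95 ± 0.92 TPM (SD, n = 4) in WT while Aldh1a2 was at 0.16 ± 0.23 TPM.

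Of the enzymes that break retinoic acid down, Cyp26b1 had by far the highest level. Cyp26b1 (chr6:84571414-84593908, minus strand) read 19, 10.05 and 25.3 TPM in WT at E9.25 and 11.3, 19.4, 16.6 and 19 TPM in Gli3-/-, which overlapped (log2 fold change -0.06 ± 0.29 SE, 95% interval -0.71 to 0.59, adjusted p = 0.902). At E10.5 it read 70.6, 79.1, 97.6 and 86.1 TPM in WT and 108, 184 and 147 TPM in Gli3-/-. Every Gli3-/- library was above every WT library, and the replicates of Gli3-/- were further apart than those of WT. Cyp26b1 rose with loss of Gli3 at E10.5 (log2 fold change 0.78 ± 0.17 SE, 95% interval 0.40 to 1.16, or 1.72-fold, adjusted p = 0.0325). This call was lost without the filter, without a variance trend, with a block by the titles' replicate numbers and with one model of all libraries (adjusted p of 0.0564 to 0.18), and without WT replicate 1, 2 or 4 or Gli3-/- replicate 2 or 3 (adjusted p of 0.0735 to 0.114).

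Of the 8 members tested between the genotypes at E10.5, 3 passed, against 4.77% of the 15654 genes tested (1.84% higher and 2.93% lower). They were Cyp26b1, higher, and Crabp2 and Rarb, lower. The median log2 fold change of the 8 was -0.22, beside -0.02 for all genes tested. Other markers moved with genotype at this stage: the summed limb mesenchyme markers were 728 to 865 TPM in WT and 619 to 663 TPM in Gli3-/-, the 6 surface ectoderm markers 178 to 217 and 267 to 301 TPM, and the 6 somite markers 45.3 to 75.4 and 23.7 to 40 TPM. Within these sums single markers moved apart. Hand2 (log2 fold change 1.90) and Fgf10 (1.05) rose while Msx1 (-0.86), Twist1 (-0.65) and Prrx1 (-0.56) fell. Of the other 2 lists only Fgf8 (1.36), a gene of the apical ectodermal ridge, and Pax1 (-4.23) passed. Fgf8 read 50.4 to 69 TPM in WT and 131 to 171 TPM in Gli3-/-. Pax1 read 8.27 to 34.6 TPM in WT and at most 0.17 TPM in Gli3-/-, and it entered the test through its WT libraries. The differences in the ectoderm and somite sums lay in large part in these 2 genes. The part of the markers in the results at E10.5 was not tested.

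The rise of Cyp26b1 between the stages was the largest increase among the members. It was 2.22 ± 0.26 (SE) on the log2 scale in WT (4.66-fold, adjusted p = 0.000469), or 1.88 relative to the median of all genes, and 3.06 ± 0.21 in Gli3-/- (8.34-fold, adjusted p = 5.85e-06). The difference between the effects of Gli3 loss at E10.5 and at E9.25 was 0.84 ± 0.37 and did not pass (adjusted p = 0.222).

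Cyp26a1 and Cyp26c1 lie side by side on chromosome 19, 4409 bases apart, and both were low. Cyp26a1 (chr19:37697808-37701528, plus strand), whose promoter is shown above, read 3.26, 1.26 and 1.73 TPM at E9.25 in WT, 3.81, 2.84, 4.3 and 2.42 there in Gli3-/-, 2.66, 3.41, 3.16 and 4.37 in E10.5 WT and 3.52, 3.34 and 3.72 in E10.5 Gli3-/-. The ranges overlapped in each comparison of genotypes, and it passed in none of the comparisons (adjusted p of 0.0846 to 0.886). Between the stages in WT it passed when E9.25 WT replicate 1 was left out (0.81 on the log2 scale, adjusted p = 0.0133) and in one model of all 14 libraries (0.55, adjusted p = 0.0433). Cyp26c1 (chr19:37685581-37693398, plus strand) was at most 0.85 TPM in any library and was listed at 0 in 2 of the E9.25 WT libraries and 1 of the E9.25 Gli3-/- libraries. It stayed under the filter in every comparison and was not tested.

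The carriers were by far the most abundant members. Both had lower means in Gli3-/- at each stage, and the difference passed for Crabp2 at E10.5. Crabp2 (chr3:87948666-87953376, plus strand) read 1181, 1158, 1142 and 1142 TPM in E10.5 WT and 847, 823 and 709 TPM in E10.5 Gli3-/-. The WT replicates were close together, and all lay well above every Gli3-/- library. Crabp2 fell, with a log2 fold change of -0.55 ± 0.08 (SE; 95% interval -0.72 to -0.37, adjusted p = 0.00456), and it passed without any one of the 7 libraries (adjusted p of 0.00828 to 0.0204). The call was lost with the titles' replicate numbers as a block (adjusted p = 0.0632). At E9.25 it read 516, 589 and 609 TPM in WT and 399, 349, 348 and 454 TPM in Gli3-/-. The ranges did not overlap there either, and the log2 fold change was of similar size, -0.56 ± 0.13, but it did not pass (adjusted p = 0.149). The difference between the 2 effects was 0.02 (95% interval -0.30 to 0.33).

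Crabp1 (chr9:54764748-54773110, plus strand) read 645, 735 and 683 TPM in WT at E9.25 and 429, 480, 514 and 484 TPM in Gli3-/-. The groups did not overlap, and the log2 fold change of -0.53 ± 0.12 did not pass (adjusted p = 0.143). In one model of all 14 libraries both Crabp1 (adjusted p = 0.0153) and Crabp2 (adjusted p = 0.0124) passed at E9.25. That model called 1185 of the 14760 genes tested at E9.25, where the main fit called 20. At E10.5 Crabp1 read 678, 591, 623 and 504 TPM in WT and 489, 431 and 476 TPM in Gli3-/-, with WT replicate 4 close to the highest Gli3-/- library. Its log2 fold change was -0.36 ± 0.10 (adjusted p = 0.0865), and it passed without WT replicate 4 (-0.44, adjusted p = 0.0344). Between the stages the carriers parted: Crabp2 rose by 1.02 ± 0.08 in WT (adjusted p = 8.51e-05) and by 1.04 ± 0.12 in Gli3-/- (adjusted p = 0.000239), while Crabp1 did not pass, at -0.20 (95% interval -0.45 to 0.04) and -0.03 (95% interval -0.26 to 0.20). With median-of-ratios size factors Crabp1 passed in WT (-0.57, adjusted p = 0.0264).

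Among the receptors, Rarb was the one that changed with loss of Gli3. Rarb (chr14:16430842-16575472, minus strand) read 21.7, 23.6 and 23.5 TPM in WT at E9.25 and 19.7, 24.4, 22.1 and 22.3 TPM in Gli3-/-. The WT values lay inside the range of the Gli3-/- values, and the log2 fold change was -0.05 ± 0.14 (SE; 95% interval -0.37 to 0.26, adjusted p = 0.816). At E10.5 it read 14.9, 10.2, 12.5 and 11.4 TPM in WT and 4.82, 2.36 and 1.64 TPM in Gli3-/-. The highest Gli3-/- library was below the lowest WT library by more than a factor of 2. Rarb fell, with a log2 fold change of -1.82 ± 0.24 (95% interval -2.37 to -1.27, adjusted p = 0.00366), and this passed under all 17 alternatives, with values from -2.15 to -1.57. Cyp26a1, the other member with a DR5 match in its promoter, did not pass at E10.5 (log2 fold change 0.05, 95% interval -0.28 to 0.38), and the part of the match in either value was not tested.

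The effect of Gli3 loss on Rarb differed between the stages. The interaction of stage and genotype was -1.77 ± 0.29 (SE; 95% interval -2.40 to -1.14, adjusted p = 0.00567), and it passed without any one of the 14 libraries, including E9.25 WT replicate 2 (adjusted p of 0.000514 to 0.0213). It was lost with the replicate numbers as a block (-1.79, adjusted p = 0.0647). Of the 9 members tested for an interaction, 1 passed, against 2.13% of the 16368 genes tested (0.477% higher and 1.65% lower). For Rdh10 the interaction was -0.87 ± 0.25 (adjusted p = 0.0917). It passed without E9.25 WT replicate 1 (-1.09, adjusted p = 0.0136) and without E9.25 Gli3-/- replicate 4 (adjusted p = 0.0447). For Aldh1a2, which was near 0 in both genotypes at E10.5, an interaction restates the E9.25 difference and is not given.

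Rara (chr11:98927818-98974942, plus strand) read 25.1, 16 and 16.3 TPM in WT at E9.25 and 23.9, 42.1, 36.4 and 24.7 TPM in Gli3-/-. WT replicate 1 lay inside the Gli3-/- range, and the log2 fold change of 0.69 ± 0.24 did not pass (adjusted p = 0.217). At E10.5 it read 27.9, 21, 32.9 and 27.5 TPM in WT and 26, 34.1 and 23.6 TPM in Gli3-/-, which overlapped (log2 fold change 0.03, 95% interval -0.33 to 0.39). Between the stages in WT Rara did not pass (0.51, adjusted p = 0.0576), but it did with sample weights and without E9.25 WT replicate 1 or E10.5 WT replicate 2 (adjusted p of 0.0118 to 0.0341). A small RNA gene, Gm22061, lies inside Rara on the same strand, and its level was at most 1.9 TPM. Rarg (chr15:102234938-102257517, minus strand) read 36.8, 30.8 and 31 TPM in WT at E9.25 and 24.9, 48, 36.5 and 31.6 TPM in Gli3-/-. It then read 101, 86.7, 119 and 110 TPM in E10.5 WT and 90.8, 121 and 86.1 TPM in E10.5 Gli3-/-. The genotypes overlapped at both stages, with log2 fold changes of 0.06 (95% interval -0.39 to 0.52) and -0.07 (95% interval -0.38 to 0.23). The stages did not overlap, and Rarg rose by 1.63 ± 0.13 in WT (3.1-fold, adjusted p = 7.25e-05) and by 1.49 ± 0.20 in Gli3-/- (2.81-fold, adjusted p = 0.000521).

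Rarb moved the other way between the stages. Its log2 fold change was -0.86 ± 0.14 in WT (adjusted p = 0.00212) and -2.63 ± 0.24 in Gli3-/- (adjusted p = 3.1e-05). At E9.25 the order of mean levels in WT was Rarg (32.8 TPM), Rarb (22.9) and Rara (19.1). The Rarg libraries lay above those of both other receptors, and the Rarb range lay inside that of Rara. At E10.5 they were spread out, at 104 ± 13.7 TPM for Rarg, 27.3 ± 4.86 for Rara and 12.3 ± 1.98 for Rarb (SD, n = 4) in WT, with no overlap between them. In E10.5 Gli3-/- the order was the same and Rarb was at 2.94 ± 1.67 TPM (SD, n = 3).

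**Figure D3:**
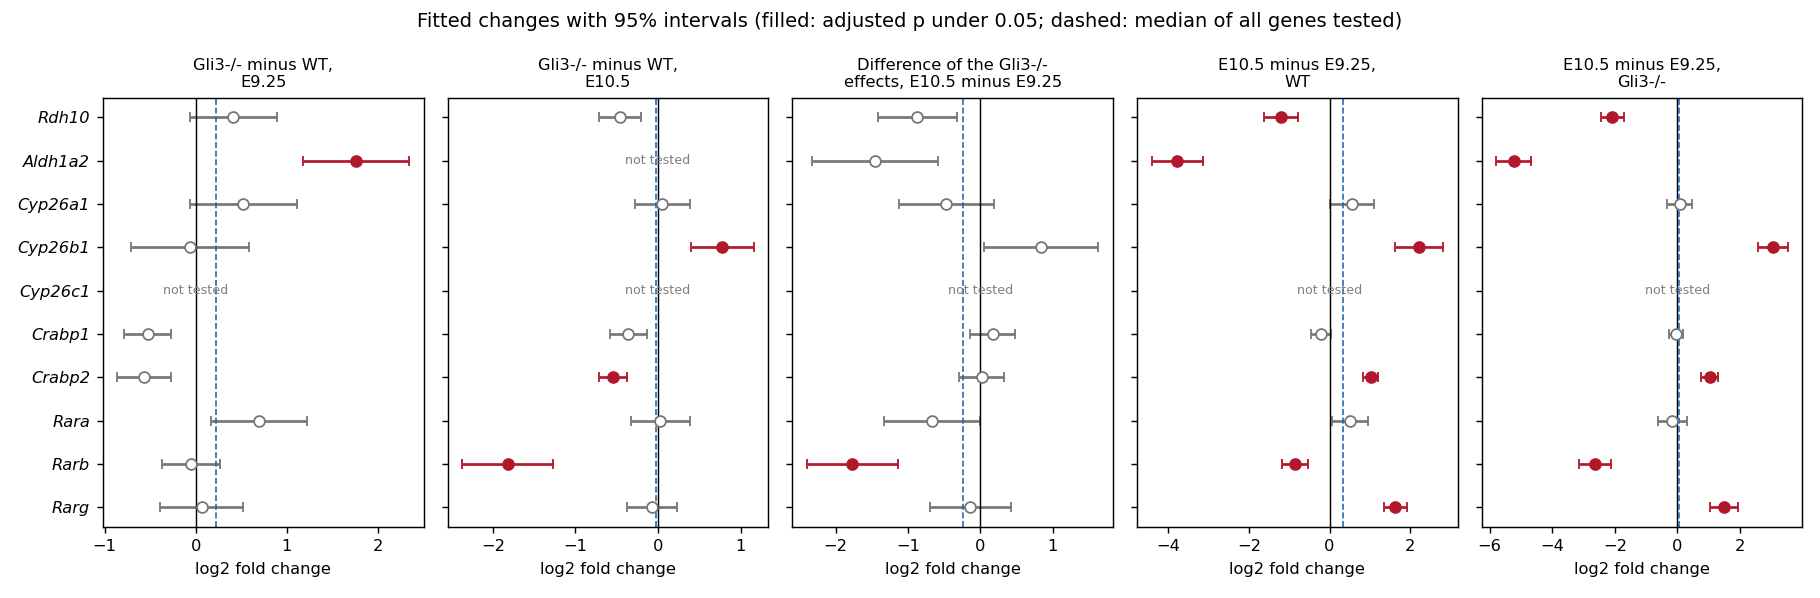
Points are fitted log2 fold changes of each member with 95% intervals, in 5 panels with their own horizontal scales: the effect of Gli3 loss at each stage (Gli3-/- minus WT), the difference of these effects, and E10.5 minus E9.25 in WT and in Gli3-/-; filled points passed an adjusted p of 0.05 and the dashed line is the median of all genes tested. Aldh1a2 (1.76) is the filled point at E9.25, Cyp26b1 (0.78), Crabp2 (-0.55) and Rarb (-1.82) are filled at E10.5, and Rarb (-1.77) is filled in the panel of the difference. Aldh1a2 is near 0 at E10.5 and entered the last 3 panels through its E9.25 libraries alone.

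Between the stages 5 of the 8 members other than Aldh1a2 that were tested passed in WT, against 48.7% of the 15444 genes tested (38.1% higher and 10.6% lower), so that a change at this rate does not set the members apart. In Gli3-/- 5 of 8 passed as well, against 25% of the 15434 genes tested (15.8% higher and 9.17% lower). In both genotypes the 5 were Rdh10 and Rarb, lower at E10.5, and Cyp26b1, Crabp2 and Rarg, higher at E10.5. Measured against the median of all genes in WT, which was itself 0.34 higher at E10.5, the changes were -1.55 for Rdh10, -1.20 for Rarb, 1.88 for Cyp26b1, 0.68 for Crabp2 and 1.29 for Rarg. Their directions held with both other scalings. The comparisons of stages and of genotypes share libraries, so they are not independent. Without E9.25 WT replicate 2 the members that passed in WT were the same 5.

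The order of the members by mean TPM differed among the 4 groups. Crabp1 led in both E9.25 groups (687 TPM in WT and 477 in Gli3-/-), ahead of Crabp2 (571 and 388), and Crabp2 led in both E10.5 groups (1156 and 793), ahead of Crabp1 (599 and 465). In E9.25 WT the places from Rarg through Rdh10, Rarb, Rara and Cyp26b1 to Aldh1a2 (32.8 to 15.4 TPM) were held by genes whose ranges overlapped with the next. The order of neighbours is thus not resolved, although the Rarg libraries lay above those of all of these genes except Rdh10. In E9.25 Gli3-/- Aldh1a2 was the third most abundant member, at 52.7 ± 11.1 TPM (SD, n = 4), with a range that overlapped that of Rarg. In both E10.5 groups it was the last, below Cyp26c1, with overlapping ranges. Next after the carriers at E10.5 came Rarg and then Cyp26b1 in WT, and Cyp26b1 and then Rarg in Gli3-/-, with overlapping ranges in both.

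Some genes outside the pathway followed the members closely over the 14 libraries. For Aldh1a2 the highest Pearson correlations of log2(TPM + 1) among 16368 genes were with Dok4 (0.988), Amph (0.987) and Gm26506 (0.986). Those for Cyp26b1 were Wipi1 (0.989), Epha4 (0.988), which encodes an ephrin receptor, and Trib2 (0.984). Those for Rarb were Hoxb6 (0.975), Hoxc4 (0.973) and Hoxb7 (0.97), which are all Hox transcription factors. The 14 libraries share 2 stages and 2 genotypes, so that these values mainly describe likeness across the 4 groups.

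Genes known to respond to retinoic acid were counted as a list of 13. At E9.25 none of the 11 tested passed limma's test between the genotypes, although 7 had an unadjusted p under 0.05, all higher in Gli3-/-. Of all 14760 genes tested, 3247 had one. With quantile normalization and size factors 4 and 3 of the 11 had one, beside 2673 and 2830 of all genes tested. Without WT replicate 2 the count that passed at E9.25 was 0 for this list and for both lists that follow. Their median log2 fold change was 0.58, beside 0.23 for all genes. At E10.5, 4 of 10 tested passed, all lower in Gli3-/-, against 4.77% of all genes (2.93% lower): Meis1 (log2 fold change -1.40, adjusted p = 0.000586), Meis2 (-1.25, adjusted p = 0.00119), Hoxb4 (-1.14, adjusted p = 0.0107) and Nr2f1 (-1.19, adjusted p = 0.0413). Nr2f1 did not pass with size factors.

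Meis1 read 44.2, 39.9, 43.7 and 46.9 TPM in E10.5 WT and 19, 16.7 and 12.6 TPM in E10.5 Gli3-/-. These groups did not overlap, while the E9.25 groups did, at 41.7, 23.5 and 31.1 TPM in WT and 36, 61.5, 52.9 and 41.9 TPM in Gli3-/-. The interaction of stage and genotype passed for 5 of 11 response genes, all lower, against 2.13% of all genes (1.65% lower), with the smallest adjusted p for Hoxb4 (-2.06, adjusted p = 0.00087), Meis1 (-1.98, adjusted p = 0.00197) and Meis2 (-1.79, adjusted p = 0.00252). Hoxb1 was among the 5, but it was too low to be tested at E10.5 (0.37 to 1.57 TPM in WT and at most 0.14 TPM in Gli3-/-), so that its interaction mainly restates its E9.25 difference (log2 fold change 1.58, which did not pass). Without E9.25 WT replicate 2 it passed for 4 of 11. Between the stages 5 fell and 2 rose of 11 tested in WT, where 10.6% of all genes fell and 38.1% rose. In Gli3-/- 8 of 11 fell, against 9.17% of all genes. Hoxb1 was among the 11 and met the filter through its E9.25 libraries (7.23 to 19.1 TPM in WT and 31.5 to 48.1 TPM in Gli3-/-). These counts are therefore no test of a fall of Hoxb1. In WT Cdx1 fell by 3.69 on the log2 scale. Several of these genes are known to be active in trunk mesoderm as well as limb, and the anterior sampling at E10.5 cannot be told apart from stage.

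Of 18 other genes for making and storing retinoids, 11 were tested in each comparison. With loss of Gli3 none passed at E9.25 (2 had an unadjusted p under 0.05 in limma, and with the other scalings 2 and 3 did). Over all 14760 genes tested, 3247 had one in limma, and 2673 and 2830 with the other scalings. At E10.5, 2 of the list passed, against 4.77% of all genes. Cyp1b1, a cytochrome P450 that can oxidize retinoids, rose from 2.73 to 4.2 TPM in WT to 7.68 to 13.3 TPM in Gli3-/- (log2 fold change 1.38, adjusted p = 0.0033). Dhrs4, a retinal reductase, fell (-0.41, adjusted p = 0.0262), and its call was lost with size factors. Between the stages in WT 4 of the 11 were higher and 2 lower, a share near the 48.7% of all genes. Stra6, the membrane receptor that takes up retinol, rose by 1.10 on the log2 scale (adjusted p = 0.00213), and Dhrs3, which returns retinaldehyde to retinol, rose by 1.20 (adjusted p = 0.00701). The alcohol dehydrogenase Adh5 fell (-0.45, adjusted p = 0.00265). Adh1, another alcohol dehydrogenase counted as lower, read 2.46 to 5.25 TPM at E9.25 and 0.69 to 2.18 TPM at E10.5. It met the filter only with its E9.25 libraries, so no test is given for it between the stages. Quantile normalization and size factors each left 2 higher and 2 lower in WT. In Gli3-/- 2 were higher and 2 lower, against 25% of all genes. Adh1, again counted as lower and met by the filter only with its E9.25 libraries, read 4.66 to 6.38 TPM at E9.25 and 0.41 to 1.13 TPM at E10.5.

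The 12 genes for RXR partners, another retinoic acid carrier and receptor co-regulators did not change with genotype by the test. At E9.25 none of 11 passed, with 6 at an unadjusted p under 0.05 in limma, all higher in Gli3-/-, and 4 with either other scaling. At E10.5 none of 11 passed, with 1 at an unadjusted p under 0.05 in limma (0 with quantile normalization and 1 with size factors). Over all genes tested, the limma counts under 0.05 were 3247 of 14760 at E9.25 and 3061 of 15654 at E10.5. Between the stages in WT 5 were higher and 1 lower of 11, a share near the 48.7% of all genes. Rxra, an RXR partner, rose by 0.80 on the log2 scale (adjusted p = 0.00378) and the coactivator Ncoa1 by 1.02 (adjusted p = 0.0051), while the carrier Fabp5 fell (-0.67, adjusted p = 0.00259). The count depended on the scaling, with 2 higher and 1 lower with size factors, and on E9.25 WT replicate 2, without which 7 were higher and 2 lower. In Gli3-/- 2 of 11 passed, both lower, against 25% of all genes: Nrip1 (-1.09, adjusted p = 0.000413), a co-repressor of nuclear receptors, and Fabp5 (-0.53, adjusted p = 0.0194).

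**Figure D4:**
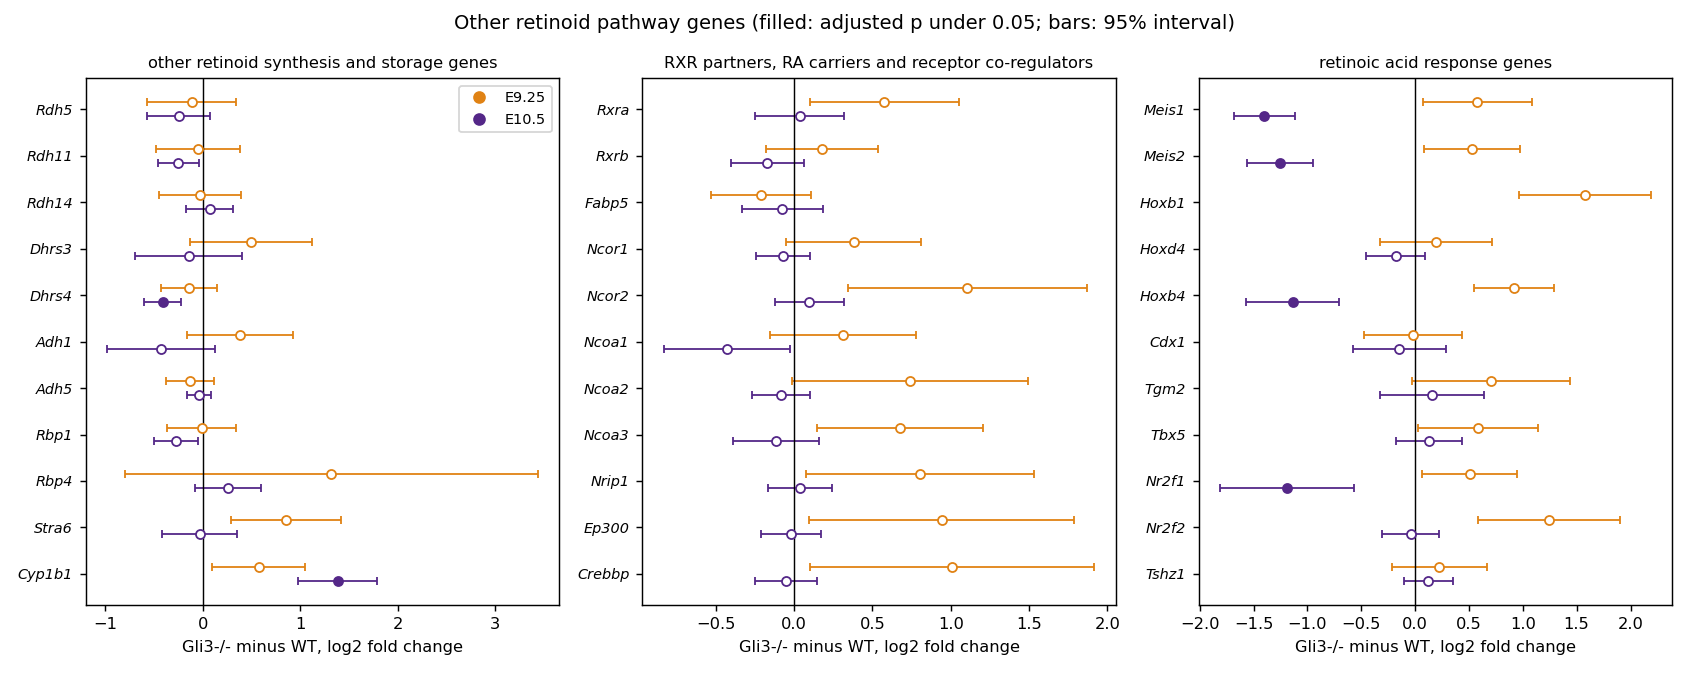
Points are fitted log2 fold changes, Gli3-/- minus WT, with 95% intervals for the genes tested in the 3 pathway groups; orange is E9.25, purple is E10.5, and filled points passed an adjusted p of 0.05. The filled points are Cyp1b1 (1.38) and Dhrs4 (-0.41) on the left and Meis1, Meis2, Hoxb4 and Nr2f1 (-1.40 to -1.14) on the right, all at E10.5.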

How the data were processed

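Per the methods, RNA from pooled buds was extracted with TRIzol and sequenced as single reads on a NovaSeq, and the authors aligned reads with HISAT2. The tables that the authors deposited list coverage, FPKM and TPM for each gene; the tool that made them is not given in the sources used here. Coordinates are those of the tables (mm10 in the submitters' processing notes). Coverage and FPKM, as deposited, served only to estimate read numbers. The deposited TPM values were summed over repeated lines of a gene ID. Genes were tested on log2(TPM + 1) with limma 3.58.1 in R 4.3.3 (lmFit, eBayes with a trend) in the groups compared, or in all 14 libraries for the interaction, and p-values were adjusted by the Benjamini-Hochberg method over all genes tested. Alternatives were another pseudocount, filter, variance trend, scaling, sample weights, replicate blocks, one model, and each library left out; list counts without E9.25 WT replicate 2 were added after the data were seen. The script was tested on simulated data. P-values measure the spread between pooled libraries. Figures used Python 3.11.15 and matplotlib 3.10.9.

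The members and lists were chosen with earlier results of these data known. Genes named are the members, Gli3, the 3 genes most like each of Aldh1a2, Cyp26b1 and Rarb, and up to 4 passing genes per list and comparison with the smallest adjusted p. Markers, Nr2f1 in the interaction, Rbp4 and Gm22061 were named after their values were seen. The chromatin libraries were not analysed here, and 1 gene of the response list is not reported here.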

Additional observations from a re-analysis of the deposited data

Results flagged for a closer look

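The effect of Gli3 loss at E10.5 differed from that at E9.25, by the interaction of stage and genotype in limma, for 1 member and 5 response genes. The interaction was -1.77 on the log2 scale for Rarb, -1.98 for Meis1, -1.79 for Meis2, -2.27 for Hoxb1, -2.06 for Hoxb4 and -1.70 for Nr2f1. Of all 16368 genes tested 2.13% passed (1.65% lower). The median interaction of all genes was -0.24, and Rarb was at -1.53 relative to it. With the replicate numbers as a block Rarb did not pass in limma (adjusted p = 0.0647). Without E9.25 WT replicate 2 Nr2f1 did not pass. Hoxb1 was too low to be tested between the genotypes at E10.5, so its value mainly restates its E9.25 difference. At E9.25 whole buds and at E10.5 anterior buds were used, so stage and tissue cannot be told apart. Over the 20 sets of 4 libraries checked for a value far from the others, no member had one, where about 1 in 20 would be marked by chance.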

How the results depend on the processing

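Of 776 member effects recomputed under the alternatives, 710 kept their sign and their side of the threshold, 20 lost a call, 18 gained one and 28 changed sign, all 28 with an adjusted p of at least 0.516; causes were not tested. The number of members called at E9.25 was 0 with a pseudocount of 0.1, no filter, no trend, quantile normalization or size factors. It was 3 in one model of 14 libraries, where 1185 of 14760 genes were called, and 0 to 1 without single libraries. At E10.5 it was 5 with sample weights. Members with an interaction numbered 2 with sample weights and 1 to 3 without single libraries; some of these counts include Aldh1a2, which is near 0 at E10.5. Of the 9 genes most like a member, 2 were among the most like by Spearman's rho. The titles' replicate numbers showed no pairing of the samples (same-number correlations of -0.199 to -0.161 at E9.25 and -0.18 to 0.153 at E10.5). With them as a block, 1 member (Rarb) passed at E10.5, where Cyp26b1 (adjusted p = 0.0897) and Crabp2 (0.0632) did not. In the interaction 0 passed with that block (Rarb -1.79, adjusted p = 0.0647). The tables of the 3 E10.5 Gli3-/- libraries are numbered 1 higher than their titles. By table number the E10.5 same-number correlations were 0.0522 to 0.316 (mean 0.189), against -0.18 to 0.153 (mean -0.0628) for other pairs. Whether the E10.5 samples were paired is thus not settled. A block by table number called 3 members (Cyp26b1, Crabp2 and Rarb). Signs changed for Rarg at E9.25 (quantile -0.15, size factors -0.18, single libraries left out -0.093 to 0.21), Cyp26b1 at E9.25 (left out -0.41 to 0.21), Rara at E10.5 (weights -0.10, left out -0.12 to 0.14), Cyp26a1 at E10.5 (block by table numbers -0.031, left out -0.031 to 0.15) and Rarg at E10.5 (left out -0.22 to 0.020). Between stages in Gli3-/- they changed for Cyp26a1 (quantile -0.076, block -0.026, left out -0.026 to 0.18) and Crabp1 (quantile 0.059, left out -0.084 to 0.020). In the interaction they changed for Rarg (quantile 0.040, size factors 0.15, left out -0.29 to 0.019), Gli3 (size factors 0.013, weights 0.0033, left out -0.51 to 0.21) and Crabp2 (weights -0.043, left out -0.033 to 0.095). Calls over all genes ranged from 0 to 1185 at E9.25 (20 as reported), 164 to 1356 at E10.5 (747), 2129 to 6520 between stages in Gli3-/- (3853), 4699 to 8556 in WT (7520) and 42 to 1433 in the interaction (348). Aldh1a2 between stages in WT could not be tested without any one E9.25 WT library.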

Other observations

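Rbp4, which encodes the retinol carrier of plasma, read 69.4 TPM in E9.25 Gli3-/- replicate 1 and 0.89 to 4.11 TPM in the other 13 libraries. It was named after its values were seen. That library's Aldh1a2 (45.4 TPM) and Rdh10 (30.6 TPM) lay inside the range of the other E9.25 Gli3-/- libraries.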
